A study of Mus musculus with 38 samples.

Results

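A group of 9 enzyme genes that handle arginine, ornithine, polyamines and creatine were followed across cortical collecting duct (CCD) libraries of mouse kidney: Arg2, Odc1, Oat, Sat1, Srm, Sms, Amd1, Gatm and Ckb. These 9 genes were named with earlier results of the same data known, chosen by their TPM in dDAVP and saline ducts and by the ATAC-seq signals of their peaks, so both sets of values are given as a description. All 9 were listed among the 55416 genes of a β-catenin RNA-seq table, 6 were listed among the 5035 genes of a dDAVP RNA-seq table, and 137 of 270806 ATAC-seq peaks carried the name of a member. Genes entered the dDAVP table if all of their TPM values exceeded 10, and Srm, Sms and Amd1 were not among them, so no dDAVP value is given for these 3.

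The series asked what an excess of vasopressin signalling without low plasma sodium does to gene expression in the CCD. Wild-type C57BL/6 mice had received dDAVP (desmopressin, which activates the V2 receptor for vasopressin) or saline for 5 days, and ducts were dissected by hand for 4 dDAVP and 4 saline RNA-seq libraries and for 3 dDAVP and 3 saline ATAC-seq libraries, with 3 ducts pooled in each ATAC-seq reaction. A further 24 RNA-seq libraries came in 4 MT and 4 WT units of 3 libraries each, where MT is a mutation of β-catenin at S552, a target site of protein kinase A. The labels of these 24 libraries disagreed with one another: each was marked as dDAVP-infused C57BL/6, only the titles separated MT from WT, and the table carried a name meaning no AVP. One title, that of dDAVP RNA library 4, combined duct number 4 with dDAVP number 3. The sources used here gave no age or sex, did not say that a unit or library number stood for one animal, and did not say in which cells the mutation was carried, so p-values measure the spread between these samples, which may be technical.

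Arginase splits arginine into urea and ornithine, and Arg2 encodes its mitochondrial form. Ornithine is then turned to putrescine by ornithine decarboxylase (Odc1) or passed toward glutamate and proline by ornithine aminotransferase (Oat). Amd1 makes the decarboxylated S-adenosylmethionine that spermidine synthase (Srm) and spermine synthase (Sms) use, and Sat1 acetylates spermidine and spermine for breakdown or export. Gatm uses arginine and glycine for the first step of creatine synthesis, and Ckb, the brain-type creatine kinase, moves phosphate between creatine and ATP. In mouse kidney Odc1 and Gatm are best known from the proximal tubule, Odc1 as an androgen-responsive gene.

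Of the 9 members, 7 had a RefSeq promoter window (250 bases before to 50 bases after the annotated start, build GRCm38.p6), 8 windows in all because Sms had 2. The windows were searched on both strands for TGACG, the half-site of the cAMP response element, since the V2 receptor acts through cAMP. The half-site stood in 3 of the 8 windows, those of Odc1, Oat and Amd1, and in 20.8% of 32851 windows of the same length genome-wide. The full palindrome TGACGTCA, of which the half-site is a part, stood in 0 of the 8 windows and in 1.79% of all windows. The 3 windows are shown because they hold the half-site, marked in capitals, and because the Odc1 and Oat windows lie under peaks described further on. Each reads 5′ to 3′ on the gene's strand, at chr12:17544623-17544922 (plus) for Odc1, chr7:132576349-132576648 (minus) for Oat and chr10:40302139-40302438 (minus) for Amd1.
Odc1: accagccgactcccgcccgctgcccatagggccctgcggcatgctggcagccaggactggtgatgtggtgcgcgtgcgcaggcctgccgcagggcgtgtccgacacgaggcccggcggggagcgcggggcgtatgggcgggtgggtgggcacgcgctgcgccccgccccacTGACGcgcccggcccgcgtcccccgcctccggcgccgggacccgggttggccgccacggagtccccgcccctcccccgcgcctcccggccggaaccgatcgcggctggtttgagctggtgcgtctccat
Oat: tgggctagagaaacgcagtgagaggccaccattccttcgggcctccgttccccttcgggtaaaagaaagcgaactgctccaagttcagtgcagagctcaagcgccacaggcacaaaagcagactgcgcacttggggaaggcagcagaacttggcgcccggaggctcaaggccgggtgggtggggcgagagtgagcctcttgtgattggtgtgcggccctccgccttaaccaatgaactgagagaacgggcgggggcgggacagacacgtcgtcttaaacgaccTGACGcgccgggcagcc
Amd1: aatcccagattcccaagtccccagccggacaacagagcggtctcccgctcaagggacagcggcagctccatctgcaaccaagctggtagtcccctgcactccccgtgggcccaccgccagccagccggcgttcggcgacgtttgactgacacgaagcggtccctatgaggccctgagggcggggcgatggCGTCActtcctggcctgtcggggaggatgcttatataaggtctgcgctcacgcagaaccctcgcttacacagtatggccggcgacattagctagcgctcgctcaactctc
The first base of the half-site stood at -79 from the annotated start in Odc1, at -60 in Amd1, where it is on the opposite strand, and at position 34 after the start in Oat. Other core motifs were scattered among the members: CCAAT stood in 4 of the 8 windows (Ckb, Gatm, Oat and one of Sms) and in 37.4% of all windows, and TATAAA stood in 1, that of Ckb, and in 13.6% of all.

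The depth of every RNA-seq library is unknown, because TPM keeps no record of it. The principal cell markers Aqp2, Aqp3, Aqp4, Avpr2, Scnn1b, Scnn1g and Hsd11b2 were all listed above 0 in each library of both tables, and so were 5 intercalated cell markers. Transcripts of neighbouring segments were present as well. For dDAVP and saline libraries, 4 of 10 proximal tubule markers were listed (Slc34a1, Miox, Fbp1 and Kap) and summed to 1096.5 to 10718 TPM in dDAVP libraries and 552 to 8972 TPM in saline libraries. In the β-catenin libraries the 10 markers summed to 13.6 to 1012 TPM in MT and 19.6 to 5293 TPM in WT. There the 3 stromal markers summed to 0.37 to 3.92 TPM in MT libraries and 0.58 to 4.50 TPM in WT libraries. Endothelial markers summed to 36.1 to 91.8 TPM in MT and 23.4 to 89.5 TPM in WT. Leukocyte markers summed to 5.80 to 53.2 TPM in MT and 6.45 to 58.0 TPM in WT. Thick ascending limb markers summed to 8.47 to 312 TPM in MT and 8.23 to 3058 TPM in WT.

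Arg2 was the member that stood higher after dDAVP. Arg2 had 126, 88.9, 127 and 104 TPM in dDAVP libraries 1 to 4, against 23.0, 20.9, 13.8 and 53.6 TPM in saline libraries 1 to 4. The lowest dDAVP library lay above the highest saline library, so the groups did not overlap, which was true of dDAVP-higher values in 3.56% of the 5035 genes. Arg2 averaged 112 ± 18.5 TPM in dDAVP libraries and 27.8 ± 17.6 TPM in saline libraries (SD, n = 4 each), a ratio of 4.01. In the limma fit over all 5035 genes on log2(TPM + 1), the difference was 2.13 with a standard error of 0.37, the 10th highest of the table, with a Benjamini-Hochberg adjusted p of 0.0238. At an adjusted p below 0.05, 35 genes (0.695%) were called, 28 higher and 7 lower; Arg2 was chosen with this result known, and nothing is read from its being among them. The authors' deposited table gave Arg2 a log2 fold change of 2.18 with an adjusted p of 0.00279.

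The size of the Arg2 difference was steadier than its call. Leaving out 1 library at a time gave log2 differences between 1.86 and 2.49, but the limma adjusted p passed 0.05 in only 2 of the 8 fits, those without saline library 3 (0.0381) and without saline library 4 (0.00243). Without dDAVP library 1, 2, 3 or 4 the adjusted p was 0.104, 0.0536, 0.111 or 0.0897, and without saline library 1 or 2 it was 0.0929 or 0.0880. Saline library 4, with 53.6 TPM, was the saline library nearest to the dDAVP values. That library had the highest saline Aqp3, 5205 TPM against 2900 to 3793 TPM in the other 3 saline libraries. It also had the lowest saline Aqp2, 18074 TPM where the highest was 21874 TPM, so these 2 markers went opposite ways.

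**Figure D1:**
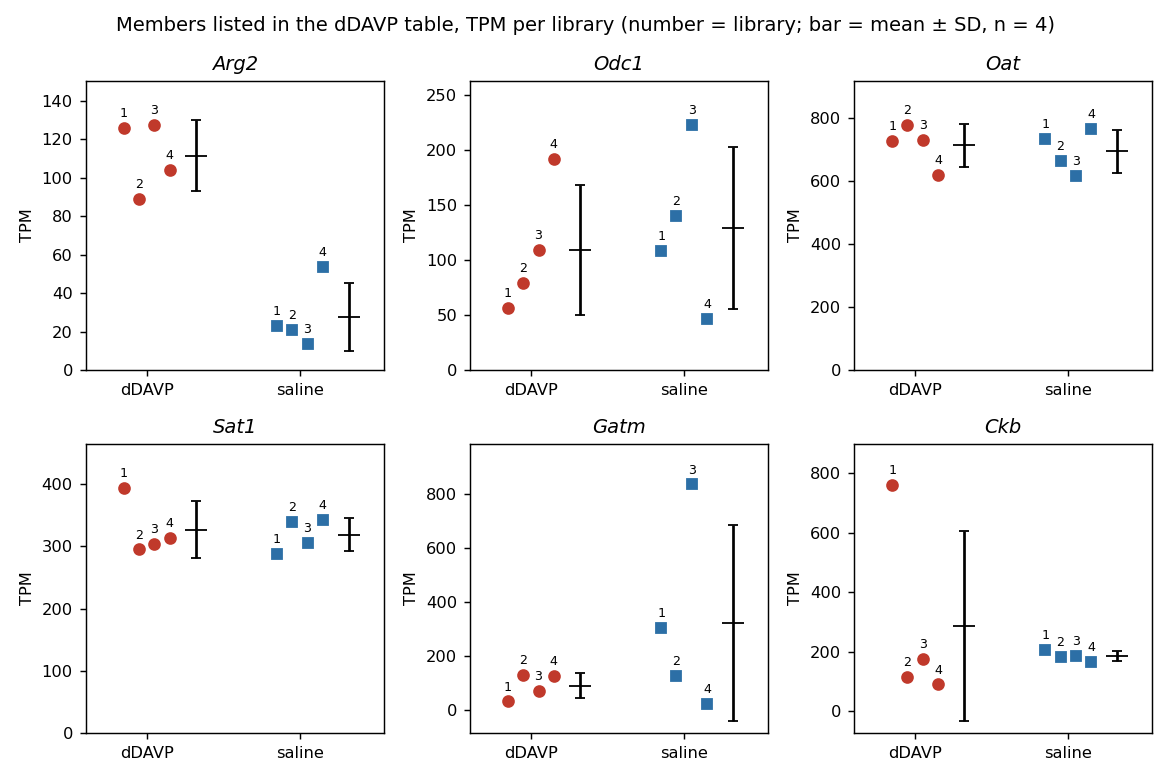
TPM of the 6 members listed in the dDAVP table, 1 panel per gene, with dDAVP libraries (red circles) left of saline libraries (blue squares), the library number above each point, and the mean ± SD (n = 4) as a black bar. Arg2 is the panel in which the groups stand apart, with 88.9 to 127 TPM in dDAVP libraries and 13.8 to 53.6 TPM in saline libraries; in the Ckb panel dDAVP library 1 stands alone at 761 TPM, and Gatm spreads most among saline libraries.

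Several cell markers also differed between these groups. The 7 principal cell markers summed to 63123 to 86947 TPM in dDAVP libraries and 28109 to 29356 TPM in saline libraries. Aqp2, the vasopressin-regulated water channel, made up most of that sum, at 51774 to 72251 TPM in dDAVP libraries and 18074 to 21874 TPM in saline libraries. The 7 did not go one way: Aqp2, Aqp3 and Avpr2 were higher in every dDAVP library than in any saline library. The sodium channel subunit gene Scnn1b was lower in every one, at 381 to 540 TPM in dDAVP libraries and 653 to 748 TPM in saline libraries. Aqp4, Scnn1g and Hsd11b2 overlapped between the groups, with mean ratios of dDAVP to saline of 2.37, 0.99 and 1.02. The 5 intercalated cell markers summed to 1299 to 1992 TPM in dDAVP libraries and 2348 to 2799 TPM in saline libraries. Of these markers only Slc26a4 did not overlap between the groups, with a mean ratio of dDAVP to saline of 0.54. Atp6v1b1, Atp6v0d2, Foxi1 and Slc4a1 overlapped, with mean ratios of 0.64, 0.69, 0.79 and 0.96. The part of these shifts in the Arg2 result was not tested, and in bulk ducts fewer cells of a type and less RNA per cell cannot be told apart. The ranges of the proximal tubule sum overlapped between the groups, and over the 8 libraries its Pearson r with Arg2 was -0.32 (exact permutation p = 0.436, adjusted p = 0.532) and rho -0.24 (exact permutation p = 0.582, adjusted p = 0.743). The permutations ran over both treatments together, between which Arg2 did not overlap, so these p-values cannot show that a relation is absent. After subtracting group means r was -0.80: among saline libraries, library 4 had the lowest sum (552 TPM) and the most Arg2, and library 3 the highest sum (8972 TPM) and the least Arg2. In dDAVP libraries 1 to 4, sums of 1096.5, 2623, 3683 and 10718 TPM stood beside 126, 88.9, 127 and 104 TPM of Arg2. Within the dDAVP group Arg2 therefore did not fall steadily as the sum rose.

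The genes whose values over the 8 libraries were most like those of Arg2 were Dab1 (Pearson r = 0.99 on log2(TPM + 1)), Aqp3 (0.98), Chrnb1 (0.98), Lcn2 (0.98) and Akr1b3 (0.97). These likenesses are a description over 8 libraries that also differ by treatment.

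Odc1 and Oat, whose enzymes use ornithine, did not follow Arg2. Odc1 had 56.3, 79.2, 109 and 192 TPM in dDAVP libraries 1 to 4, against 108, 140, 223 and 46.5 TPM in saline libraries 1 to 4. The groups overlapped almost fully, and the log2 difference was -0.19 with a standard error of 0.47. Without saline library 3 that difference was 0.14, and without saline library 4 it was -0.60. Oat, the most abundant member, had 727, 778, 730 and 619 TPM in dDAVP libraries 1 to 4, against 735, 665, 615 and 766 TPM in saline libraries 1 to 4. Its log2 difference was 0.04 with a standard error of 0.14, and all 8 libraries lay within a 1.26-fold range.

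Sat1, on the breakdown side of the polyamine pathway, was nearly as even as Oat. Sat1 had 394, 295, 304 and 314 TPM in dDAVP libraries 1 to 4, against 287, 339, 306 and 343 TPM in saline libraries 1 to 4. Its log2 difference was 0.03 with a standard error of 0.15, and dDAVP library 1 was the one high value.

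The creatine genes were uneven. Gatm had 31.3, 129, 71.4 and 126 TPM in dDAVP libraries 1 to 4, against 303, 125, 838 and 20.7 TPM in saline libraries 1 to 4. Both the highest and the lowest library were saline ones, and the log2 difference of -1.05 had a standard error of 0.90. That difference was -0.26 without saline library 3 and -2.01 without saline library 4, so its size rested on single libraries. Ckb had 761, 117, 176 and 90.0 TPM in dDAVP libraries 1 to 4, against 205, 183, 185 and 165 TPM in saline libraries 1 to 4. The mean of Ckb was higher in dDAVP libraries (286 TPM) than in saline libraries (184 TPM) through dDAVP library 1, and the other 3 dDAVP libraries lay below or within the saline range. The log2 difference of Ckb was 0.08 with a standard error of 0.52, and without dDAVP library 1 it was -0.58.

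Across the wider pathway, a list of 62 genes of arginine, ornithine, proline, polyamine and creatine handling that includes the members, 23 genes were listed in the dDAVP table. One was called higher, Arg2, and 1 lower, Ckmt1, the mitochondrial creatine kinase, beside 0.695% of all genes called in either direction. The median log2 difference of the 23 was -0.24, against -0.06 over all 5035 genes. The list was drawn up with earlier results of these data known, so nothing is read from these calls or from this median. Ckmt1 had 795 ± 108 TPM in dDAVP libraries and 1387 ± 146 TPM in saline libraries (SD, n = 4 each), with no overlap, and a log2 difference of -0.81 (limma adjusted p = 0.0306). When single libraries were left out, the Ckmt1 call ended in 7 of 8 cases, at adjusted p-values from 0.0525 to 0.124, and the authors' deposited table gave it an adjusted p of 0.688. The next smallest p-values belonged to Asl, the argininosuccinate lyase that makes arginine, with a log2 difference of -0.87 (limma adjusted p = 0.398), and to the vesicular polyamine transporter Slc18b1, with -0.88 (limma adjusted p = 0.494).

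Odc1 followed the proximal tubule markers from library to library. In the dDAVP table the 8 libraries ranked nearly the same by Odc1 and by the sum of the 4 listed proximal tubule markers (Spearman rho = 0.98, exact two-sided permutation p = 0.000397, adjusted p = 0.00476; Pearson r = 0.98 on the log2 scale, exact permutation p = 7.44e-05, adjusted p = 0.000893). The adjustment covers 12 relations of members with marker sums in that table, which were chosen after the data were seen. Without the 2 libraries with the most extreme sums, saline 4 and dDAVP 1, r was 0.97, after subtracting group means it was 0.99, and with Kap left out of the sum it was 0.94. The relation therefore ran through both groups: dDAVP library 4 and saline library 3, with marker sums of 10718 and 8972 TPM, had the 2 highest Odc1 values (192 and 223 TPM), and saline library 4, with 552 TPM of markers, had the lowest (46.5 TPM).

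In the β-catenin table the 8 units ranked the same by Odc1 and by the sum of all 10 proximal tubule markers (Spearman rho = 1.00, exact two-sided permutation p = 4.96e-05, adjusted p = 0.00134 over 27 relations chosen in the same way; Pearson r = 0.92, exact permutation p = 2.48e-05, adjusted p = 0.00067). These unadjusted p-values are the smallest that 8 units allow. Without the 2 most extreme units, WT 3 and MT 1, r was 0.86, and without Kap in the sum it was 0.87. Unit means of Odc1 spanned 66.8 to 145 TPM while the marker sum spanned 37.1 to 2310 TPM. In MT unit 1 and WT unit 2, where the summed markers were lowest (37.1 and 87.8 TPM), Odc1 still stood at 66.8 and 67.8 TPM.

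**Figure D2:**
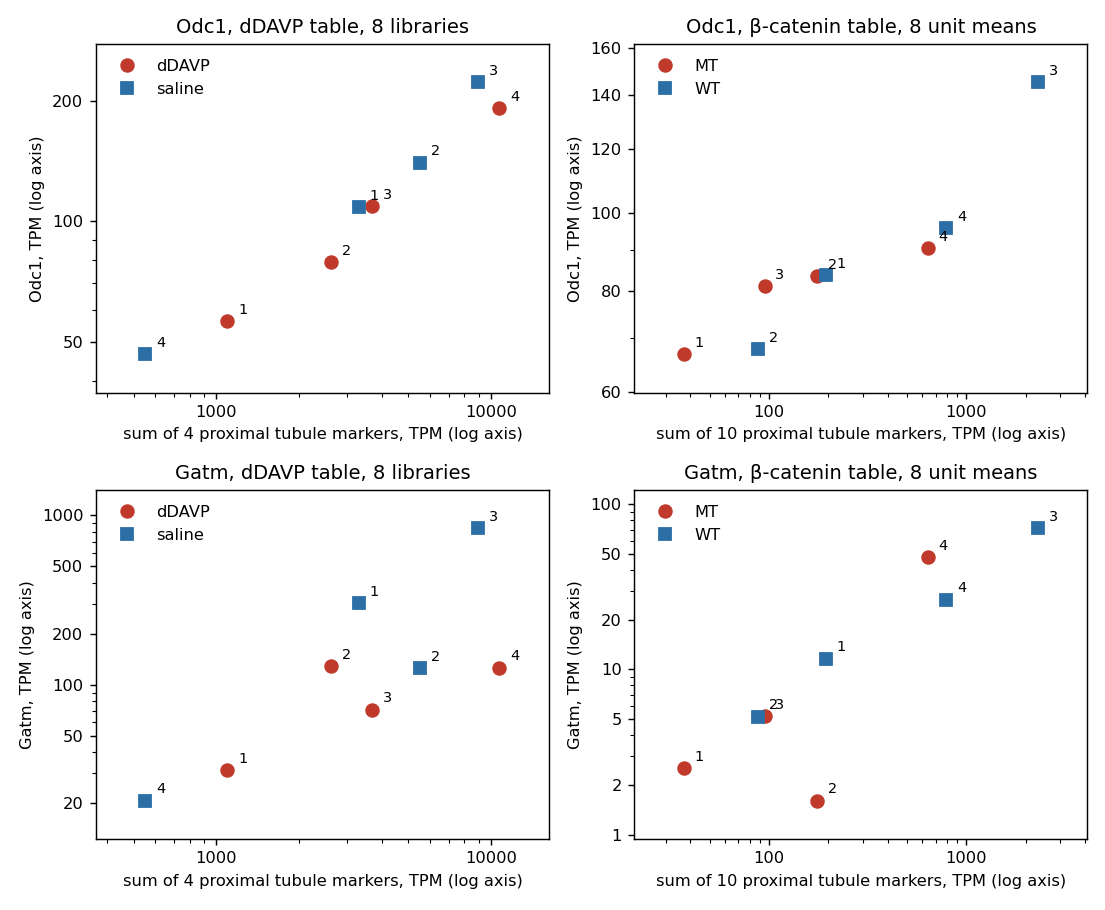
Odc1 (top) and Gatm (bottom) in TPM against the summed TPM of proximal tubule markers, on log axes, for the 8 libraries of the dDAVP table (left; dDAVP red circles, saline blue squares) and the 8 unit means of the β-catenin table (right; MT red circles, WT blue squares), with library or unit numbers beside the points. Odc1 climbs with the marker sum in both tables, apart from the 2 highest points of the dDAVP table, and Gatm scatters more: dDAVP library 4 has a sum of 10718 TPM with 126 TPM of Gatm, and saline library 3 a sum of 8972 TPM with 838 TPM of Gatm.

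The relation of Gatm to the proximal tubule sum was looser and did not pass the adjustment in either table. In the β-catenin units Pearson r of Gatm with the marker sum was 0.89 (exact permutation p = 0.00377, adjusted p = 0.0509) and Spearman rho was 0.83 (exact permutation p = 0.0154, adjusted p = 0.138); without WT 3 and MT 1, r was 0.81. In the dDAVP table r was 0.78 (exact permutation p = 0.0215, adjusted p = 0.0646) and rho 0.57 (exact permutation p = 0.151, adjusted p = 0.453), and r was 0.35 without the 2 most extreme libraries, on which that relation rested. Single libraries show how Odc1 and Gatm parted. WT unit 3 library 1 had 260 TPM of Odc1, the highest of the 24, with 16.7 TPM of Gatm, and there Kap, the kidney androgen-regulated protein gene, stood at 3840 TPM and the organic anion transporter gene Slc22a6 at 96.6 TPM. WT unit 3 library 2 had 192 TPM of Gatm, the highest of the 24, with 95.1 TPM of Odc1, and there Kap stood at 119 TPM, Slc22a6 at 1.35 TPM and the early proximal glucose transporter gene Slc5a2 at 170 TPM. MT unit 4 library 3 repeated the second pattern, with 124 TPM of Gatm, 90.6 TPM of Odc1, 142 TPM of Slc5a2 and 53.9 TPM of Kap. In the dDAVP table, dDAVP library 4 held the most Kap (8672 TPM) and saline library 3 the most Slc34a1 (2286 TPM), beside their 126 and 838 TPM of Gatm. These libraries were picked after their values were seen, and the part of neighbouring segments in the Odc1 and Gatm values was not tested.

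Ckb was highest in the library with the most thick ascending limb RNA. Umod, the one listed marker of that segment, stood at 5253 TPM in dDAVP library 1, where Ckb was 761 TPM, and at 21.0 to 825 TPM in the other 7. Pearson r of Ckb with Umod was 0.88 (exact permutation p = 0.00923, adjusted p = 0.0554) and rho 0.81 (exact permutation p = 0.0218, adjusted p = 0.112), and r was 0.52 without the 2 most extreme libraries. Of the 24 β-catenin libraries, WT unit 1 library 1 had the highest sum of thick ascending limb markers (3058 TPM) and the most Ckb (280 TPM). Libraries 2 and 3 of that unit had 137 and 138 TPM of Ckb. MT unit 4 library 1 had 259 TPM of Ckb with a sum of only 38.8 TPM. These libraries were picked after their values were seen, and their link was not tested. In the β-catenin units the thick ascending limb sum gave r = 0.40 with Ckb (exact permutation p = 0.326, adjusted p = 0.44) and rho = 0.26 (exact permutation p = 0.536, adjusted p = 0.629). Over the same units the proximal tubule sum gave r = 0.81 with Ckb (exact permutation p = 0.0149, adjusted p = 0.128) and rho = 0.83 (exact permutation p = 0.0154, adjusted p = 0.138), and r was 0.62 without the 2 most extreme units. In the dDAVP table r of Ckb with that sum was -0.47 (exact permutation p = 0.247, adjusted p = 0.424) and rho -0.21 (exact permutation p = 0.619, adjusted p = 0.743). Oat ran the other way from the proximal tubule sum in the dDAVP table, with r = -0.81 (exact permutation p = 0.0173, adjusted p = 0.0646) and rho = -0.79 (exact permutation p = 0.0279, adjusted p = 0.112), and r was -0.99 without the 2 most extreme libraries. In the β-catenin units that relation of Oat gave r = -0.30 (exact permutation p = 0.466, adjusted p = 0.547) and rho = -0.48 (exact permutation p = 0.243, adjusted p = 0.41).

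The β-catenin table gave all 9 members on one scale. By mean TPM over the 8 units the order was Oat (830), Sat1 (210), Ckb (190), Odc1 (89.3), Srm (25.5), Gatm (21.5), Arg2 (17.8), Amd1 (13.5) and Sms (2.57). Neighbours whose unit ranges overlapped, and so did not separate, were Sat1 and Ckb, Srm and Gatm, Gatm and Arg2, and Arg2 and Amd1. Oat stood above Sat1, Odc1 below Ckb, Srm below Odc1, and Sms below Amd1 in every unit. In the dDAVP table Arg2 was last of the 6 listed members by mean in saline libraries and 4th in dDAVP libraries, between Ckb and Odc1, whose ranges overlapped its own. Arg2 lay between 8.34 and 28.8 TPM in all 24 β-catenin libraries and Aqp2 between 9501 and 30070 TPM, below the lowest dDAVP library of the other table for both genes (88.9 TPM of Arg2 and 51774 TPM of Aqp2); the tables were normalised separately and this gap was not tested.

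No member passed the limma test between MT and WT, which called 0 of 15013 genes (0%) at an adjusted p below 0.05. At an unadjusted p below 0.05 it had 683 genes, and a fit of all 24 libraries with the unit as a random effect called 1, which was not a member. All 9 members overlapped between the groups, where 3.02% of tested genes had groups that did not.

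Arg2 had unit means of 27.2, 14.9, 12.7 and 22.5 TPM in MT units 1 to 4, against 13.2, 26.4, 11.6 and 14.3 TPM in WT units 1 to 4. High units were found in both groups, MT 1, MT 4 and WT 2. The log2 difference of Arg2 was 0.24 with a standard error of 0.30, so 2 standard errors either side ran from -0.35 to 0.83. The 3 libraries of a unit also differed, from 9.23 to 19.1 TPM of Arg2 in WT 4 and from 24.8 to 28.7 TPM in MT 1, and 68.8% of its variance on the log2 scale lay between units. The units with most Aqp2, WT 2 (27628 TPM) and MT 1 (22497 TPM), were also the 2 with most Arg2; MT 4 followed for Arg2 with 14197 TPM of Aqp2. Pearson r of Arg2 with Aqp2 over the 8 units was 0.79 (exact permutation p = 0.0189, adjusted p = 0.128) and Spearman rho 0.52 (exact permutation p = 0.197, adjusted p = 0.354), and r was 0.15 without WT 2 and MT 1, so the relation rested on those 2 units and did not pass adjustment. The 5 genes most like Arg2 over the units were Rufy2 (Pearson r = 0.99), Zfp110 (0.97), Eps8l2 (0.97), H6pd (0.96) and Aptx (0.95), none of them among the 5 most like it in the dDAVP table.

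**Figure D3:**
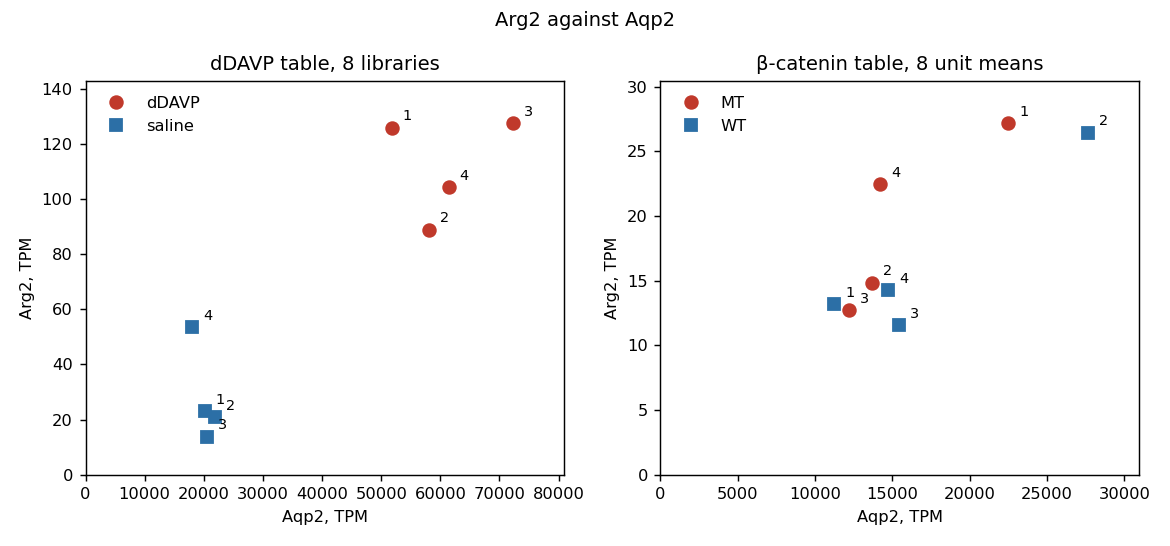
Arg2 in TPM against Aqp2 in TPM for the 8 libraries of the dDAVP table (left; dDAVP red circles, saline blue squares) and the 8 unit means of the β-catenin table (right; MT red circles, WT blue squares), with library or unit numbers. On the left the treatments form 2 separate clusters, so no correlation is given; on the right WT 2 and MT 1 stand high for both genes, MT 4 is high for Arg2 alone, and the other 5 units lie between 11.6 and 14.9 TPM of Arg2.

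Odc1 had unit means of 66.8, 83.6, 81.2 and 90.5 TPM in MT units 1 to 4, against 83.8, 67.8, 145 and 95.8 TPM in WT units 1 to 4. WT 3 was high through its first library, and the log2 difference of -0.23 had a standard error of 0.21. Oat had 846, 793, 850 and 854 TPM in MT units 1 to 4, against 783, 907, 839 and 768 TPM in WT units 1 to 4. The Oat difference of 0.02 on the log2 scale had a standard error of 0.06, the smallest of the members, and its coefficient of variation over the 24 libraries was 6.52%.

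Among Srm, Sms and Amd1, the genes of polyamine synthesis beyond putrescine, Srm had 21.5, 25.5, 26.6 and 22.5 TPM in MT units 1 to 4, against 27.3, 25.4, 27.3 and 28.1 TPM in WT units 1 to 4. Its log2 difference of -0.17 had a standard error of 0.08, the smallest p of the members, which did not pass over all genes (limma adjusted p = 0.969). MT 2 and MT 3 lay within the WT range of Srm, and MT 1 and MT 4 below it. Sms had 2.95, 2.36, 2.88 and 2.37 TPM in MT units 1 to 4, against 2.12, 2.57, 2.82 and 2.48 TPM in WT units 1 to 4. Only 1.75% of the variance of Sms lay between units, so at this level its 3 libraries differed within a unit as much as between units. Amd1 had 12.2, 15.2, 16.0 and 12.8 TPM in MT units 1 to 4, against 12.7, 12.1, 13.7 and 13.4 TPM in WT units 1 to 4. The log2 differences were 0.06 with a standard error of 0.12 for Sms and 0.10 with a standard error of 0.09 for Amd1. The near-identical copy Amd2 was listed at 0.07 to 0.137 TPM in MT units and 0.06 to 0.13 TPM in WT units, and how reads shared by such copies were split is not given in the sources used here.

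Sat1 had 193, 191, 207 and 214 TPM in MT units 1 to 4, against 263, 188, 233 and 188 TPM in WT units 1 to 4. Units differed from each other more than libraries of a unit did, with 69.5% of the variance of Sat1 between units, and WT 1 was the highest. The log2 difference of Sat1 was -0.10 with a standard error of 0.11.

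Gatm had 2.51, 1.60, 5.22 and 47.7 TPM in MT units 1 to 4, against 11.6, 5.17, 71.6 and 26.5 TPM in WT units 1 to 4. Its 24 libraries ran from 0.81 to 192 TPM, a 237-fold range, and 28.7% of its variance lay between units. That share was lower still for Odc1 (24.5%), Ckb (20.8%) and Amd1 (19.4%). The log2 difference of Gatm, -1.45, had a standard error of 1.03, and 2 standard errors either side ran from -3.50 to 0.60. Ckb had 147, 208, 184 and 225 TPM in MT units 1 to 4, against 185, 161, 221 and 188 TPM in WT units 1 to 4. Its log2 difference was 0.01 with a standard error of 0.14, and MT 1 was the lowest unit and MT 4 the highest.

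**Figure D4:**
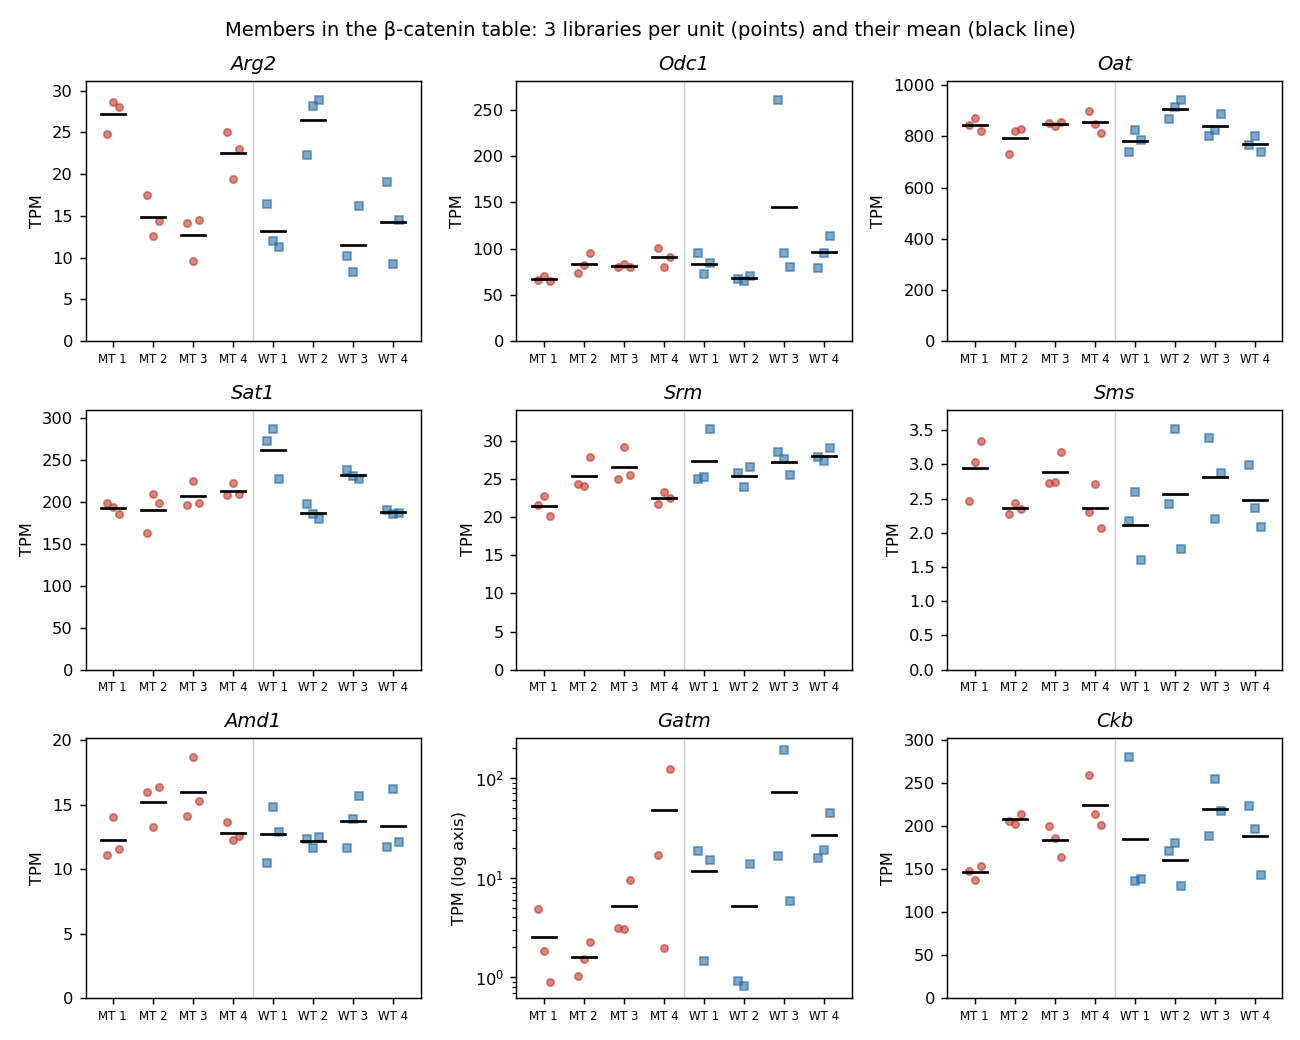
TPM of the 9 members in the β-catenin table, with the 3 libraries of each unit as points (MT units 1 to 4 in red circles, left; WT units 1 to 4 in blue squares, right) and the unit mean as a black line; Gatm is on a log axis. Arg2 and Sat1 differ mainly from unit to unit. Odc1, Sms, Amd1, Gatm and Ckb differ mainly from library to library within a unit, and 1 library of WT 3 reaches 260 TPM of Odc1.

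Of the wider list, 46 genes had a mean TPM of 1 or more in the β-catenin table, and 0 were called, beside 0% of all genes. Their median log2 difference was -0.02, against 0.01 over all genes. After Srm, the smallest p-values were those of the taurine transporter Slc6a6 (log2 difference -0.22), the pyrroline-5-carboxylate reductase Pycrl (-0.15) and the lysosomal polyamine exporter Atp13a2 (-0.10), each with a limma adjusted p of 0.969. Ckmt1, lower after dDAVP, had 1119 ± 123 TPM in MT units and 1087 ± 126 TPM in WT units (SD, n = 4 each).

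Chromatin at the members was read from the authors' deposited ATAC-seq table (mm10), which gives 1 signal per group on a log2 scale, the fold and an adjusted p, with no value per library; no test of its own was possible, and the values are described. The authors' fold was not the plain difference of the group signals, so the fold and that difference need not match in size or sign. Peaks carried a member's name by the authors' assignment, and 51 of the 137 overlapped the gene they were named with. For Odc1 this was 5 of 34 peaks, for Oat 14 of 43 and for Ckb 4 of 15. At an authors' adjusted p below 0.05, 0 of the 137 member peaks were called higher after dDAVP and 8 lower, while 0.846% of all 270806 peaks were called higher and 5.98% lower. Lower signal after dDAVP went with peak strength in this table, and the weakest peaks leaned the other way. Peaks above 0 in both groups were split into bands by their mean log2 signal. The median log2 fold was 0.21 in the band 0 to 1 and 0.15 in the band 1 to 2. It was -0.04 in the band 2 to 3 and lower in each stronger band. Among peaks with a mean log2 signal of 7 or more, 53.2% were called lower and the median log2 fold was -0.49. The members had 8 such strong peaks, all with a fold below 0, of which 3 were called lower and whose median log2 fold was -0.43.

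Arg2 (chr12:79130788-79156301) had 15 peaks, 12 of them over the gene, and none was called higher although its RNA was. Its promoter peak, chr12:79130385-79131388, spanning the annotated start, had a log2 signal of 7.91 in dDAVP ducts and 8.30 in saline ducts, with an authors' log2 fold of -0.27 and adjusted p of 0.393. One peak was called lower, chr12:79135634-79135992 in intron 2, 4846 bases into the gene, with a log2 signal of 5.75 in dDAVP ducts and 6.58 in saline ducts, an authors' log2 fold of -0.71 and an adjusted p of 0.0165. The 5 Arg2 peaks with a fold above 0 all had authors' adjusted p-values of 0.578 or more. The largest of these folds, 1.47, belonged to a peak upstream of the gene with a log2 signal of 1.49 in dDAVP ducts and 0.0166 in saline ducts, at the bottom of the scale.

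Odc1 (chr12:17544808-17551502) had 34 peaks, of which 2 were called lower. The promoter peak chr12:17544178-17545718, which covers the whole printed Odc1 window, had a log2 signal of 8.77 in dDAVP ducts and 9.45 in saline ducts, with an authors' log2 fold of -0.56 and an adjusted p of 0.0015. The other lay 24262 bases from the gene at chr12:17575764-17576615, with a log2 fold of -0.63 and an authors' adjusted p of 0.0476. Oat (chr7:132557475-132576398) had 43 peaks and the strongest of any member, chr7:132575591-132576597, which the table annotated to intron 1 and which also covers 249 of the 300 printed bases. Its log2 signal was 9.21 in dDAVP ducts and 9.77 in saline ducts, with an authors' log2 fold of -0.45 and an adjusted p of 0.00323. The only Oat peak annotated as promoter, chr7:132576818-132576891, had 2.67 in dDAVP ducts and 2.88 in saline ducts and was not called (authors' adjusted p = 0.952). Odc1 and Oat had called losses of signal at their starts, and the groups overlapped in their RNA. Such losses were general among strong peaks of the table, of which 53.2% were called lower, with a median log2 fold of -0.49. The folds of Odc1 (-0.56) and Oat (-0.45) lay on either side of that median. Nothing particular to these genes is therefore read from their losses, and a link to their RNA was not tested.

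Srm, Sms and Amd1 each had 1 called peak. Srm (chr4:148591513-148594619) had it at exon 1, chr4:148591222-148592121, with a log2 signal of 8.16 in dDAVP ducts and 8.82 in saline ducts and an authors' adjusted p of 0.0130. The stronger Srm peak annotated as promoter, chr4:148590696-148590940, had 3.42 in dDAVP ducts and 4.05 in saline ducts and was not called (authors' adjusted p = 0.556). Sms (chrX:157443851-157492287) had its called peak at the promoter, chrX:157491197-157492399, with 6.65 in dDAVP ducts and 7.33 in saline ducts and an authors' adjusted p of 0.0423. Amd1 (chr10:40287458-40302188) had it 5157 bases outside the gene at chr10:40307345-40308525, with 6.55 in dDAVP ducts and 7.43 in saline ducts and an authors' adjusted p of 0.00364, while the promoter peak over its printed window had 7.79 in dDAVP ducts and 8.32 in saline ducts and was not called (authors' adjusted p = 0.133). For Sat1 (chrX:155213126-155216449), 0 of 6 peaks were called, and its promoter peak had a log2 signal of 7.83 in dDAVP ducts and 8.29 in saline ducts. Ckb (chr12:111669355-111672338) had 15 peaks and 1 called lower, chr12:111668446-111668888 at the end of the gene, with 6.01 in dDAVP ducts and 6.73 in saline ducts and an authors' adjusted p of 0.0410. The stronger Ckb promoter peak, chr12:111672063-111672618, had 5.49 in dDAVP ducts and 5.88 in saline ducts and was not called (authors' adjusted p = 0.581). Gatm (chr2:122594473-122611277) had 6 peaks and none called. Its promoter peak had 5.16 in dDAVP ducts and 5.27 in saline ducts, while the authors' log2 fold was 0.01.

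**Figure D5:**
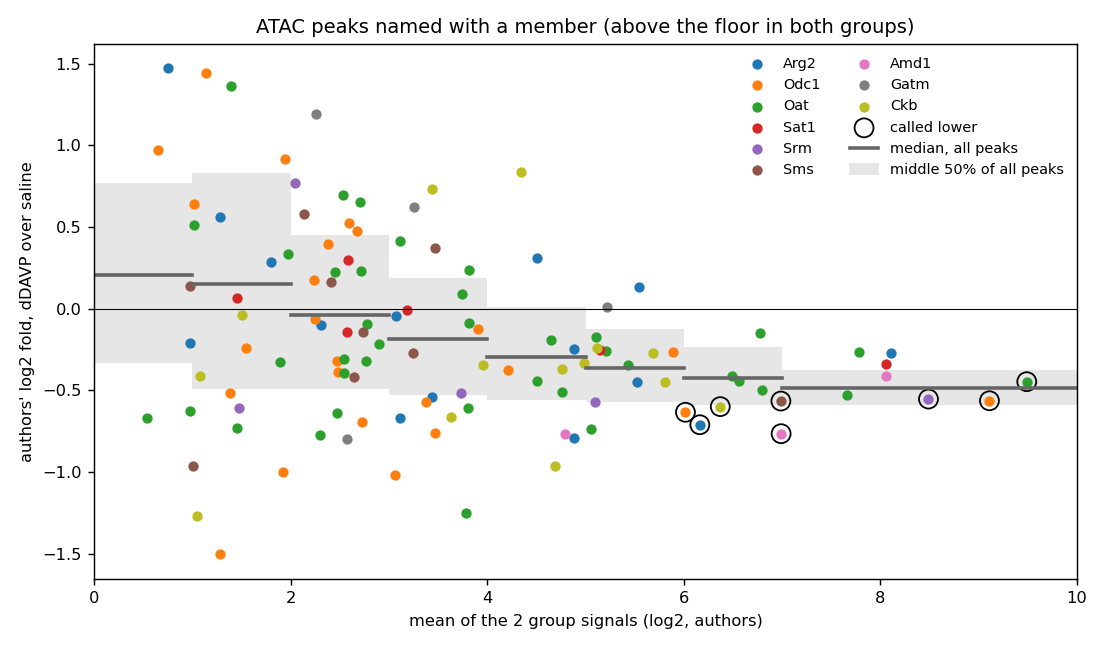
The authors' log2 fold of dDAVP over saline against the mean of the 2 group signals (log2) for the 118 of 137 member peaks above the floor in both groups, coloured by gene, with circles round the 8 called lower; grey lines are the medians and grey bands the middle 50% of all peaks per unit of signal. Nearly all strong peaks of the table lie below 0 and the member peaks lie among them, with a median of -0.43 for the 8 strong member peaks and -0.49 for all strong peaks.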

How the data were processed

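RNA was measured as TPM deposited by the authors, normalised by them for transcript length and library total; STAR, RSEM and mm10 are named in the submitters' processing notes, and per the file headers the dDAVP table kept genes with a lowest TPM above 10. The ATAC-seq table holds the authors' log2 group signals and log2 fold, with unadjusted and adjusted p-values deposited by the authors; DiffBind is named in the submitters' processing notes. Groups came from the titles.

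Each RNA contrast was fitted with limma 3.58.1 (eBayes with a trend, R 4.3.3) on log2(TPM + 1) after dropping genes whose mean TPM was below 1, with Benjamini-Hochberg adjustment over all genes and a threshold of 0.05. For MT and WT, the mean of a unit's 3 libraries was the replicate. The fit and the permutation test were tested on simulated data. Relations used exact two-sided permutation tests over 8 samples. One gene of the proximal tubule marker list is not reported here and enters no sum. Members and gene lists were chosen with earlier results of these data known; the text names the 9 members, wider-list genes past the threshold, the 4 of smallest p per contrast, the 5 most like Arg2 in each table, and each member's promoter, strongest and called peaks. Alternatives were other pseudocounts (0.1 and 5), scalings, filters, limma without a trend, a replicate block and leaving out each replicate. Promoter windows are from RefSeq.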

Additional observations from a re-analysis of the deposited data

Results flagged for a closer look

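In all, 8 groups of 4 held a library or unit far from the other 3, of 52 groups tested, where chance alone flags about 1 in 20. In dDAVP library 1 Ckb was 761 TPM, and the other 3 dDAVP libraries had 90.0 to 176 TPM. Gatm was 47.7 TPM in MT unit 4, against 1.60 to 5.22 TPM in the other 3 MT units. Oat was 793 TPM in MT unit 2, against 846 to 854 TPM in the other 3. Of the wider list, Ckmt1 in saline library 3 was 1170 TPM, and the other 3 saline libraries had 1436 to 1486 TPM. The same library had 193 TPM of Slc6a6, and the other 3 had 54.8 to 68.8 TPM. Slc6a6 was also 124 TPM in MT unit 1, against 92.1 to 96.0 TPM in the other 3. Pycrl was 75.7 TPM in WT unit 2, against 85.4 to 86.1 TPM in the other 3 WT units. Slc18b1 was 22.2 TPM in MT unit 4, against 16.4 to 17.3 TPM in the other 3 MT units.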

How the results depend on the processing

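The dDAVP contrast called 35 genes, 18 without a trend and 8 with a replicate block, and 7 to 47 when each replicate was left out; the wider list had 2 calls, 1 without a trend, 1 with quantile scaling, 0 with the block and 0 to 2 without a replicate. Same-numbered dDAVP and saline libraries had deviations correlated at 0.19, 0.23, 0.087 and -0.15. Libraries of different numbers were not compared, so these values cannot show whether the replicate numbers pair the samples. The block gave Arg2 an adjusted p of 0.112 at the same log2 difference. The β-catenin contrast called 0 genes, 1 with all 24 libraries and the unit as a random effect, and 0 to 5 without a replicate; its wider list had 0 in every alternative. Member peaks called were 8, and 3 at an authors' adjusted p of 0.01, a threshold at which all peaks were not counted. At an authors' unadjusted p below 0.05 there were 21 of the 137 member peaks, beside 52436 of all 270806 peaks. Nothing about the members is read from these counts. In the β-catenin contrast the signs of Oat (0.02) and Ckb (0.01) turned with median-of-ratios scaling (-0.023 and -0.038) and ranged from -0.010 to 0.070 and from -0.078 to 0.13 without a replicate; the cause was not tested. Quantile and median-of-ratios scaling kept the Arg2 call. Depth is unknown for every library, and per-library ATAC-seq spread was not used here.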
